A study of Mus musculus with 12 samples.

Results

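The genes described here are 36 genes of the lysosome, comprising soluble hydrolases, the activators that work beside them, proteins of the lysosomal membrane, subunits of the proton pump and the transcription factor Tfeb. They were taken from a list of names, with no threshold on a measured value, and all 36 were found once each among the 16106 genes of the deposited table. Their mRNA was measured by RNA sequencing in neural stem and progenitor cells (NSPCs) grown as neurospheres, which are floating clusters of dividing cells, from the cortex of single C57BL/6 mouse embryos at embryonic day 14.5. Neurospheres at the third passage were exposed for 24 h to 10 µM pravastatin, a statin that inhibits HMG-CoA reductase in cholesterol synthesis, or to vehicle. There were 4 groups of 3 libraries each, namely female pravastatin, female vehicle, male pravastatin and male vehicle, all of 1 strain. A pravastatin and a vehicle library with the same sex and number were taken as 1 culture, which gave 6 cultures.

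Lysosomes are acidic compartments in which hydrolases break down proteins, glycans and lipids that arrive by endocytosis and autophagy. Most soluble hydrolases reach them through mannose 6-phosphate receptors, a proton pump (the V-ATPase) keeps the lumen acidic, and cholesterol freed from lipoproteins leaves through dedicated carriers. Many lysosomal genes are targets of TFEB, a transcription factor held in the cytoplasm when nutrients are plentiful, and loss of single enzymes causes storage diseases that often damage the brain.

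Reads assigned to the genes of the deposited table numbered 13353619 to 18422845 per library. They were recovered from the deposited values, which are reads per gene scaled by the authors to an effective library size and are called normalized values here. A count of 0 would allow up to 3 reads, or a value of 0.157 to 0.228, as far as counting error goes. All 36 genes were above 1 in every library, with values from 5.09 to 998.8. The 12 listed markers of neural stem cells and radial glia were above 1 in all 12 libraries. Of 11 microglia and macrophage markers 0 were in the table, the 3 endothelial markers present reached at most 3.29, and the 1 erythroid marker present reached at most 2.07. Of 9 mural and meningeal markers 4 were in the table. Among these Cspg4 reached 391 and Pdgfrb 21.9, while Acta2 and Col1a1 reached at most 6.26 and 4.33. With either treatment, female cultures 2 and 3 differed from the remaining 8 libraries. Gfap, which encodes an astrocyte intermediate filament, was at 506.8 and 69.3 in the pravastatin libraries of female cultures 2 and 3 and at 408 and 179 in their vehicle libraries, against 3.96 to 8.31 in the other 8 libraries. As a check of the treatment, all 20 listed enzymes of cholesterol synthesis rose with pravastatin, with a median log2 fold change of 1.64. Among them, Hmgcs1, which makes HMG-CoA, had a log2 fold change of 1.67 and Sqle, squalene epoxidase, one of 1.33.

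The levels of the 36 genes under vehicle spanned a wide range. Per kilobase of exon, Psap, the precursor of the saposins that help lipid hydrolases, stood first at 272, followed by the membrane glycoprotein Lamp1 at 182, the membrane protein Laptm4a at 168 and the aspartic protease Ctsd at 101. Atp6v0d1, a V-ATPase subunit, was at 69.4 per kilobase. The lowest were Galc, which cleaves galactosylceramide, at 2.47, Tfeb at 1.92 and the alpha-L-iduronidase Idua at 1.59. In normalized values, Psap was at 745 ± 163 and Lamp1 at 487 ± 109 in vehicle libraries, while Asah1, acid ceramidase, was at 156 ± 9.06 (SD, n = 6). The highest vehicle values of Psap and Lamp1 were those of female cultures 2 and 3.

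The promoters are shown because TFEB is known to bind the CLEAR element, a palindrome with the core CACGTG, and SREBP factors, which respond to sterol depletion, bind elements such as TCACNCCAC. Promoters of 300 bases, from 250 before to 50 after the RefSeq gene start (GRCm38.p6), matched 33 of the 36 genes, and Asah1, Ctsb and Atp6v1h were not searched. Of these 33, 13 (39.4%) held CACGTG, against 8.09% of all 27025 genes with a promoter. The longer form TCACGTGA was in 7 of 33 (21.2%), against 1.12% of all genes, and TCACNCCAC was in 1 (Ctsf), against 1.44%. The 27025 genes include genes absent from the deposited table, while all 36 were above 1 in every library, so these shares are over unlike sets. Both strands were searched, and TCACGTGA contains CACGTG. These matches describe the letters and are not shown to be bound sites. The 4 sequences below run from 5′ to 3′ on the strand of the gene, with CACGTG and TCACNCCAC in capitals. Ctsd (chr7:142387778-142388077, minus strand) and Gm2a (chr11:55097735-55098034, plus strand) both rose with pravastatin, and Gm2a has neither motif. Lamp1 (chr8:13158911-13159210, plus strand) has the most copies and did not pass the test, and Ctsf (chr19:4854915-4855214, plus strand) has one of each motif and differed most between the libraries with high Gfap and the rest.
Ctsd: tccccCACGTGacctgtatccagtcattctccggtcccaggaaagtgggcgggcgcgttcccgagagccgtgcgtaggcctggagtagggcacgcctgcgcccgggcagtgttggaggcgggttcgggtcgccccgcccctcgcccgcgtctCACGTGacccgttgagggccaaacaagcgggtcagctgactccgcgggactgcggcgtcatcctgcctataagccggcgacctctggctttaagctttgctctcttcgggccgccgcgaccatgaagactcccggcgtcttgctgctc
Gm2a: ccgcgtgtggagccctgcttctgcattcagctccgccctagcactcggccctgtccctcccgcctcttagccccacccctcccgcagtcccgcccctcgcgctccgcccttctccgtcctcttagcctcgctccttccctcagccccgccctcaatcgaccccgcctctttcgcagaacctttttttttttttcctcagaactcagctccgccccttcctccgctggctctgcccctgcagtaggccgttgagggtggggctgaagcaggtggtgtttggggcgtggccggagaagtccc
Lamp1: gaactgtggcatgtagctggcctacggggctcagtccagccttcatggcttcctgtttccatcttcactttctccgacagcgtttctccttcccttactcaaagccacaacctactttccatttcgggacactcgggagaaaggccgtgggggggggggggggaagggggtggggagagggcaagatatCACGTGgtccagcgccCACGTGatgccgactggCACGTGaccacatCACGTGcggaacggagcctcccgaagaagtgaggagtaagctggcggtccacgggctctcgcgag
Ctsf: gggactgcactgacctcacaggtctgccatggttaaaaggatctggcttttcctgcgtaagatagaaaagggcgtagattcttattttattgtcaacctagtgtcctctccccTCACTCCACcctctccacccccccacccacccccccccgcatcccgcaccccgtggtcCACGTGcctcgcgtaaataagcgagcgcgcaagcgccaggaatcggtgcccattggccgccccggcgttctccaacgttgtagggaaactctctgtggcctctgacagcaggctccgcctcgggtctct
In Ctsd the copies of CACGTG begin 245 and 98 bases before the start, and the nearer one lies within TCACGTGA. In Lamp1 the 4 copies begin 61, 45, 28 and 15 bases before the start. In Ctsf, CACGTG begins 79 bases and TCACNCCAC 137 bases before the start.

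Pravastatin was first compared with vehicle within the 6 cultures. Of the 36 genes Asah1, Ctsd, Gm2a and Ids were higher, Manba was lower, and the other 31 did not pass the test. Calls came from limma on log2(value + 0.5) with a term for each culture, at an adjusted p under 0.05 over the 15093 genes tested. The 4 higher genes compare with 10.5% of all genes called higher and the 1 lower gene with 8.13% called lower. The 5 called genes are 13.9% of the 36, near the 18.6% of all genes called in either direction. The median log2 fold change of the 36 genes was 0.02, with a range of -0.25 to 0.62, beside a median of -0.008 over all genes tested, and 21 of the 36 lay within 0.1 of 0. On values rescaled to library totals the split was 3 higher and 5 lower. That scaling moved the median over all genes from -0.008 to -0.068 (log2). The share of all genes called under it is not given, so the shift was not shown to be particular to the 36 genes. In bulk RNA a difference in the cells present and a difference in RNA per cell cannot be told apart.

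**Figure D1:**
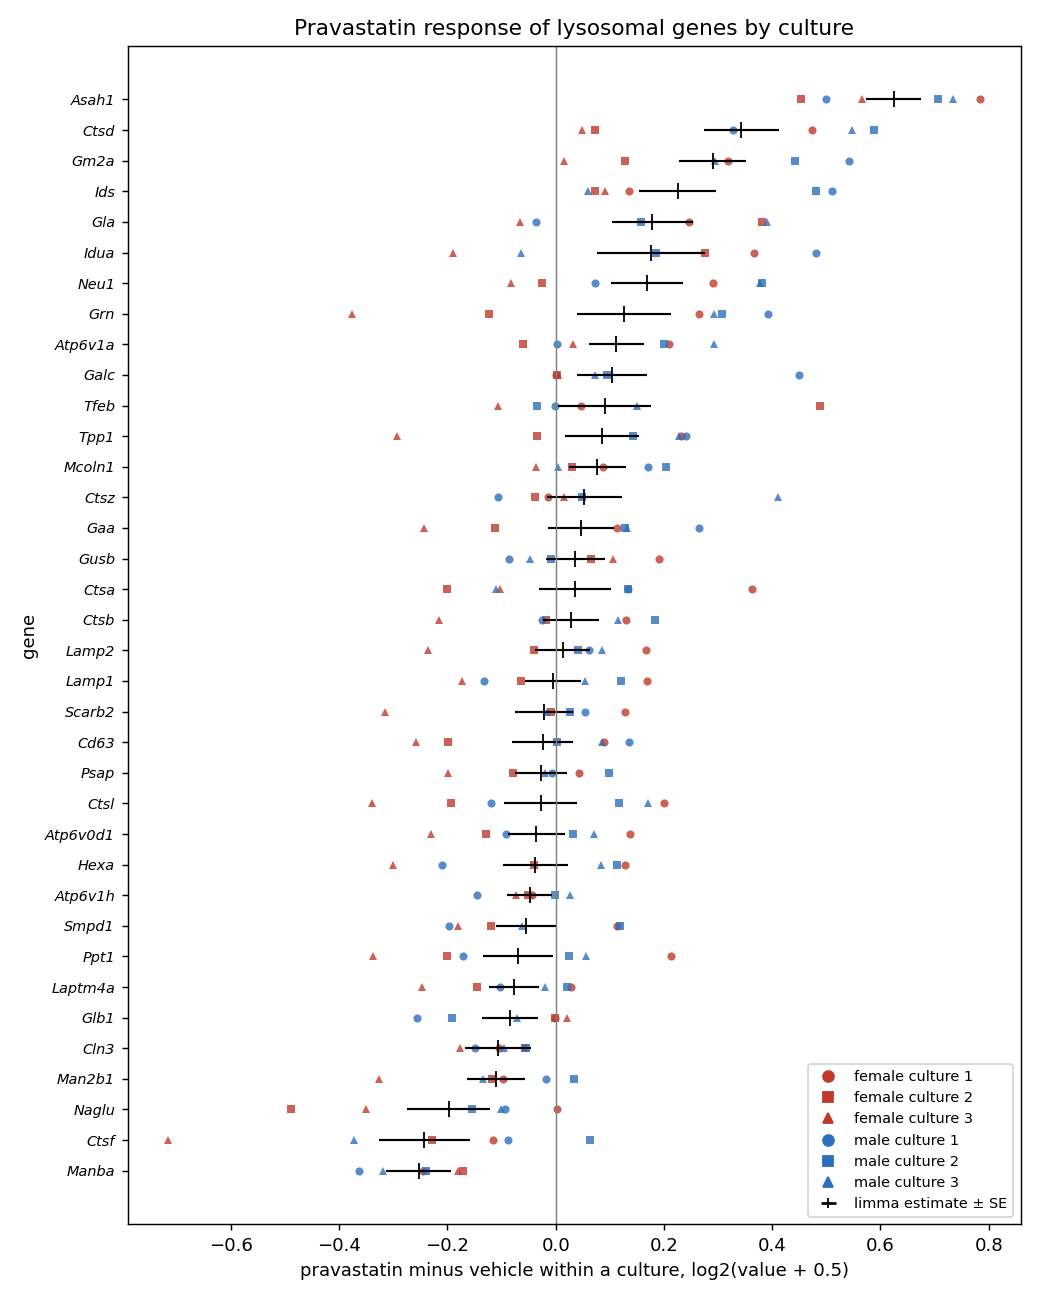
Pravastatin minus vehicle within each culture on the log2(value + 0.5) scale (x axis) for the 36 genes (y axis), with red symbols for female and blue for male cultures and the limma estimate ± SE in black. Asah1, Ctsd, Gm2a and Ids lie right of 0 in 6 of 6 cultures, Manba lies left of 0 in 6 of 6, and female culture 3 is often the lowest point.

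Asah1 (ENSMUSG00000031591, chromosome 8, 41340197 to 41374773 of GRCm38, minus strand), the acid ceramidase that splits ceramide into sphingosine and a fatty acid, rose most. It was at 244, 219 and 225 in the pravastatin libraries of female cultures 1, 2 and 3 and at 218, 266 and 277 in those of male cultures 1, 2 and 3. The vehicle libraries had 141, 160.1 and 152 in female cultures 1, 2 and 3, and 154, 163 and 166 in male cultures 1, 2 and 3. All 6 pravastatin libraries lay above all 6 vehicle libraries, which held for 2.25% of all genes. The means were 242 ± 25.3 with pravastatin and 156 ± 9.06 with vehicle (SD, n = 6). By limma this was a log2 fold change of 0.62 ± 0.05 (SE) with an adjusted p of 1.19e-06. Asah1 was the only one of the 36 to pass the 1.5-fold threshold that the study used, at 1.54-fold, a threshold passed upward by 1.99% of all genes. It was also the only one called without the culture term (adjusted p = 7.62e-05 from limma).

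Ctsd (ENSMUSG00000007891, chromosome 7, 142375911 to 142388038, minus strand) encodes cathepsin D, a major aspartic protease of the lysosome. It was at 281, 302 and 297 with pravastatin in female cultures 1, 2 and 3 and at 258, 323 and 334 in male cultures 1, 2 and 3, against 203, 287 and 287 with vehicle in the female cultures and 206, 214 and 229 in the male ones. The limma estimate was 0.34 ± 0.07 (log2, SE), with an adjusted p of 0.0046 (0.106 without the culture term). The ranges of the 2 treatments overlapped. The vehicle libraries of female cultures 2 and 3 were about as high as their pravastatin libraries, and the changes there were small. Of the exon bases of Ctsd 34.4% are shared with Gm49369, a gene model on the same strand in GENCODE vM21. HTSeq at its default leaves out reads that overlap more than 1 gene, but whether the annotation used for counting held Gm49369 is not given in the sources used here.

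Gm2a (ENSMUSG00000000594, chromosome 11, 55098115 to 55113029, plus strand) encodes the activator that presents ganglioside GM2 to beta-hexosaminidase. Its values were 129.9, 182 and 171 with pravastatin in female cultures 1, 2 and 3 and 139.6, 156 and 147 in male cultures 1, 2 and 3, against 104, 167 and 169 with vehicle in females and 95.7, 115 and 119 in males. The limma estimate was 0.29 ± 0.06 (log2, SE), with an adjusted p of 0.00624 (0.285 without the culture term). The rise was between 0.01 and 0.13 on the log2 scale in female cultures 2 and 3 and between 0.29 and 0.54 in the other 4 cultures.

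Ids (ENSMUSG00000035847, chromosome X, 70343069 to 70365084, minus strand), iduronate 2-sulfatase, acts on dermatan and heparan sulfate. It was at 35.3, 37.8 and 34.9 with pravastatin in female cultures 1, 2 and 3 and at 46.0, 41.5 and 36.4 in the male ones, against 32.1, 36.0 and 32.8 with vehicle in female cultures and 32.1, 29.6 and 34.9 in male cultures. Male cultures 1 and 2 had the widest gaps, and the ranges of the treatments overlapped. The limma estimate was 0.23 ± 0.07 (log2, SE), with an adjusted p of 0.0418 (0.167 without the culture term), and the call was lost without female culture 1 or any single male culture.

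Manba (ENSMUSG00000028164, chromosome 3, 135485611 to 135571404, plus strand), beta-mannosidase, takes the last mannose from N-linked glycans and was the only one of the 36 genes called lower. It was at 17.3, 20.8 and 23.2 with pravastatin in female cultures 1, 2 and 3 and at 13.4, 16.4 and 17.5 in male cultures 1, 2 and 3, against 20.6, 23.5 and 26.4 with vehicle in females and 17.3, 19.5 and 21.9 in males. It fell in 6 of 6 cultures by similar steps, although the ranges over cultures overlapped. The limma estimate was -0.25 ± 0.06 (log2, SE), with an adjusted p of 0.0117 (0.235 without the culture term).

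**Figure D2:**
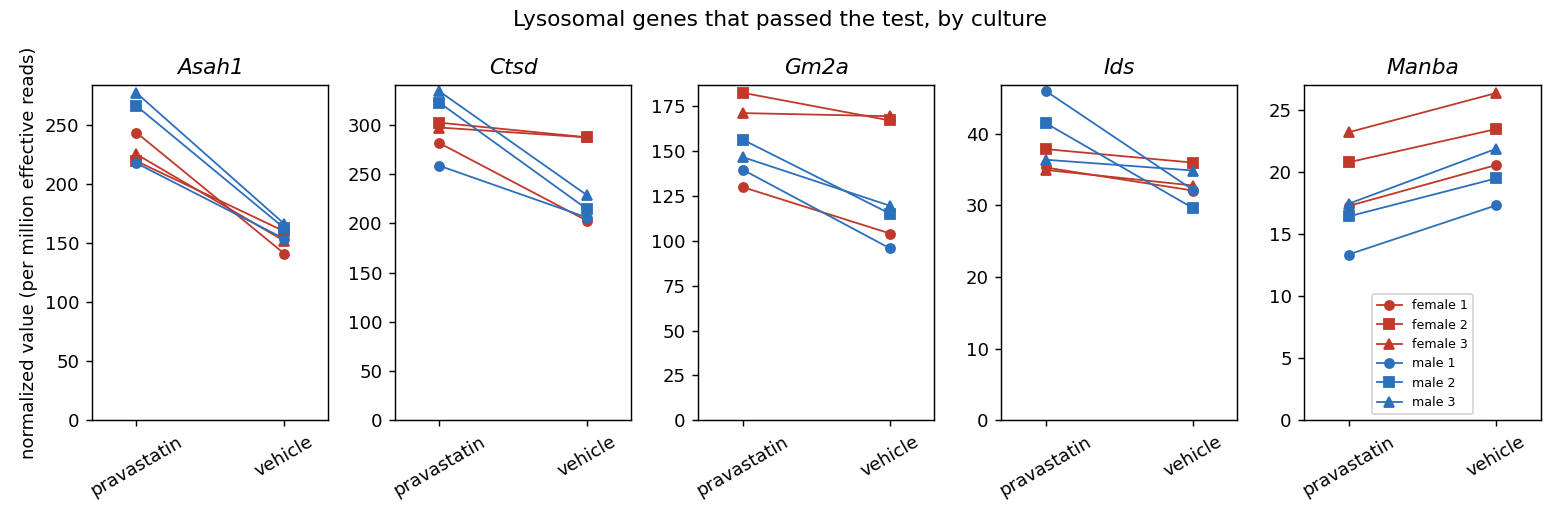
Normalized values (y axis, from 0) of Asah1, Ctsd, Gm2a, Ids and Manba with pravastatin and with vehicle (x axis), with a line joining the 2 libraries of each culture. Asah1 is between 218 and 277 with pravastatin and between 141 and 166 with vehicle, and every line of Manba is lower at pravastatin than at vehicle.

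In all, 5 of the 36 genes were higher in all 6 cultures (11.7% of all genes were) and 2 were lower in all 6 (10.6% of all genes were). The fifth higher gene was Galc, with steps of 0.45 in male culture 1 and at most 0.09 elsewhere on the log2 scale, and the second lower gene was Cln3, a membrane protein lost in juvenile Batten disease, with steps of -0.05 to -0.18. Neither passed the test (log2 fold change 0.10 and adjusted p = 0.272 for Galc; -0.11 and 0.236 for Cln3; limma).

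The genes next in order of p stopped short of the threshold. Ctsf, a cysteine protease of the papain family, had a limma estimate of -0.24 ± 0.08 (log2, SE; adjusted p = 0.0598), with a lower value under pravastatin in 5 of 6 cultures and the widest step, -0.72, in female culture 3. It was called lower by edgeR and by DESeq2 with the same culture term. Naglu, which removes N-acetylglucosamine from heparan sulfate, had -0.20 (SE 0.08, adjusted p = 0.0874), and the sialidase Neu1 had 0.17 (SE 0.07, adjusted p = 0.0938). Tfeb itself was at 11.6, 16.0 and 12.6 with pravastatin in female cultures 1, 2 and 3 and at 10.1, 9.90 and 10.2 in male cultures 1, 2 and 3, against 11.2, 11.3 and 13.6 with vehicle in females and 10.1, 10.2 and 9.14 in males. Only the pravastatin library of female culture 2 stood clear of the rest, and the log2 fold change of 0.09 (SE 0.09, adjusted p = 0.489) did not pass.

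By role, 1 of the 7 proteases was called higher. This was Ctsd, while Ctsa, Ctsb, Ctsf, Ctsl, Ctsz and Tpp1, the tripeptidyl peptidase, were not called, and the log2 fold changes of the 7 ran from -0.24 to 0.34. Ctsb shares 12.8% of its exon bases with Fdft1, the squalene synthase gene on the opposite strand. Fdft1 was at 284 to 352 with pravastatin and 89.8 to 141 with vehicle, while Ctsb had a log2 fold change of 0.03. The kit marks strand, but the strand setting of the counting is given only as the HTSeq default. Reads of this overlap may therefore have been left out or counted for either gene.

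Of the 11 glycosidases 0 were called higher and 1, Manba, lower. Hexa (a subunit of beta-hexosaminidase), Gaa (acid alpha-glucosidase), Galc, Glb1 (acid beta-galactosidase), Gla (alpha-galactosidase A), Gusb (beta-glucuronidase), Idua, Man2b1 (lysosomal alpha-mannosidase), Naglu and Neu1 were not called, and the 11 log2 fold changes ran from -0.25 to 0.18. Among the other 4 hydrolases Asah1 and Ids were higher, while the palmitoyl-protein thioesterase Ppt1 and acid sphingomyelinase, Smpd1, which makes the ceramide that Asah1 splits, had -0.07 and -0.06 and were not called. Of the 3 activators and lumenal proteins Gm2a was higher, and Psap and progranulin, Grn, were not called. Psap had a log2 fold change of -0.03 (SE 0.05).

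No gene among the 7 membrane proteins, Lamp1, Lamp2, Cd63, Scarb2, Mcoln1, Laptm4a and Cln3, or the 3 V-ATPase subunits, Atp6v0d1, Atp6v1a and Atp6v1h, passed the test in either direction. Their log2 fold changes ran from -0.11 to 0.08 for the membrane proteins and from -0.05 to 0.11 for the subunits. For Lamp1 the estimate was below 0.01 in size, with an SE of 0.05, and 3 cultures were higher and 3 lower. The SE over the 36 genes ran from 0.04 to 0.10, which sets how small a change these 6 cultures could resolve. Some reads of Cd63 may not be told apart from those of Cd63-ps, a pseudogene 98.0% identical to it over 858 bases. Cd63-ps was itself at 64.6 to 117.

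Other listed genes of the lysosomal system are set beside the same shares, 10.5% of all genes called higher and 8.13% lower. Of 28 further hydrolases and lumenal proteins tested, 4 were higher and 1 lower, with a median log2 fold change of 0.02. Scpep1, a serine carboxypeptidase, was at 118 to 152 with pravastatin and 81.6 to 87.0 with vehicle (log2 fold change 0.68, SE 0.06, adjusted p = 1.36e-06 from limma). Npc2, the soluble carrier that hands cholesterol to the membrane of the lysosome for export, was at 379 to 471 with pravastatin and 240 to 352 with vehicle (0.59, SE 0.07, adjusted p = 3.07e-05). In both, every pravastatin library lay above every vehicle library, and both kept the call without the culture term. Ctsc, dipeptidyl peptidase I, rose by 0.30 (adjusted p = 0.00513). Arsa, arylsulfatase A, named after its values were seen, rose by 0.35 (adjusted p = 0.0216).

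Of 22 further membrane proteins 1 was higher, the lipid transporter Abca2 (log2 fold change 0.26, adjusted p = 0.0135 from limma), while the nucleoside transporter Slc29a3 and Tmem192 followed in order of p and were not called (adjusted p = 0.0834 and 0.116). Of 15 further V-ATPase genes Atp6v0a1 alone was higher, at 120.3 to 168 with pravastatin and 99.6 to 111 with vehicle (0.44, SE 0.06, adjusted p = 0.000415). Atp6ap2 (0.20) and Atp6v1b2 (-0.11) were not called. Of 17 regulators around mTORC1 and the TFEB family 1 was higher and 1 lower, namely Fnip2, a partner of folliculin (0.24, adjusted p = 0.00483), and Lamtor5, a subunit of the Ragulator complex that anchors Rag GTPases to lysosomes (-0.27, adjusted p = 0.0214). Folliculin itself, Flcn, had -0.19 (adjusted p = 0.0572). Of 16 genes that deliver hydrolases to lysosomes the adaptor subunit Ap3b1 was higher (0.15, adjusted p = 0.0406), and the receptors Lrp1 and Igf2r were not called (adjusted p = 0.0574 and 0.103). Without the culture term Scpep1, Npc2 and Atp6v0a1 kept their calls, and the other genes named as called in this and the preceding paragraph did not.

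Males and females were then taken apart, since the title of the series names a comparison of the sexes. In males 6 of the 36 genes were higher and 1 was lower, against 10.1% of all genes called higher, 8.78% called lower and 18.9% in either direction. On library totals the split was 5 and 2, with no share of all genes given for that scaling. The 5 genes called over all cultures were among the genes called in males. Their log2 fold changes were 0.65 for Asah1, 0.49 for Ctsd, 0.43 for Gm2a, 0.35 for Ids and -0.31 for Manba. The added ones were Neu1, with 0.28 (SE 0.08, adjusted p = 0.0269 from limma), and Grn, the precursor of the granulins, with 0.33 (SE 0.08, adjusted p = 0.00648). Without the culture term the calls of Neu1 (adjusted p = 0.0606) and Manba (0.136) were lost in males, DESeq2 called neither, and the call of Neu1 was also lost on library totals. Grn was between 50.97 and 56.4 with pravastatin in the 3 male cultures, against 40.5 to 45.9 with vehicle, so the 2 ranges did not overlap. The count of higher genes changed with single cultures, being 11 without male culture 1 and 3 without male culture 2. The shares of all genes called in these fits are not given, so the change was not shown to be particular to the set.

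In females 1 gene was higher, Asah1 (0.60, SE 0.07, adjusted p = 0.00433 from limma), and 0 were lower, against 1.95% and 0.184% of all genes (2.13% in either direction). Of the 36 genes 5 had an unadjusted p under 0.05 in females by limma, and the share of all genes with such a p is not given. Calls by edgeR and by DESeq2 were also of Asah1 alone, and without the culture term 0 were called. Log2 fold changes in females were 0.20 for Ctsd, 0.15 for Gm2a, 0.10 for Ids, -0.20 for Manba, 0.06 for Neu1 and -0.08 for Grn, none of which passed. Grn was at 57.9, 85.5 and 55.2 with pravastatin in female cultures 1, 2 and 3, against 48.2, 93.2 and 71.8 with vehicle, higher in culture 1 and lower in cultures 2 and 3. The difference between the sexes itself passed for 0 of the 36 genes and for 0 of 15093 genes (0%). The smallest adjusted p among the 36 was 0.635 (limma), and 4 had an unadjusted p under 0.05. The share of all genes with such a p is not given. With edgeR and DESeq2 the difference also passed for 0 of 36. Grn had the widest gap of those given here, a female minus male difference of -0.41 (SE 0.14), and it passed without female culture 1. The female side then held only female cultures 2 and 3, both with high Gfap, so sex and the state of these cultures cannot be told apart in that fit. The share of all genes that passed in it is not given.

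Under vehicle alone, females and males differed in 0 of the 36 genes by limma, where 0.00663% of 15081 genes were higher and 0.0265% lower in females (0.0332% in either direction). The count was also 0 of 36 with edgeR and with DESeq2. By limma 4 of the 36 had an unadjusted p under 0.05, and the share of all genes with such a p is not given. Leaving out the vehicle library of female culture 1 turned this into 25 genes higher and 1 lower in females. In that fit 22.3% of all genes were higher, and the share of all genes lower is not given. What remained on the female side were the 2 vehicle libraries with high Gfap, so sex and the state of these cultures cannot be told apart there.

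The 4 libraries with Gfap above 50 were female cultures 2 and 3 with either treatment, and they were set against the other 8 libraries. This division is by a measured gene and not by the study's groups, so it is described without a test. Much of the lysosomal set was higher where Gfap was high. For 15 of the 36 genes (41.7%) all 4 libraries lay above all 8 others, against 14.6% of all genes. For 0 of the 36 all 4 lay below, against 10.9% of all genes, and the ranges of the other 21 overlapped. The median log2 difference was 0.37 over the 36 genes, beside -0.0005 over the 15093 genes tested. Of the 36, 30 were positive, and the share of all genes that were positive is not given.

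**Figure D3:**
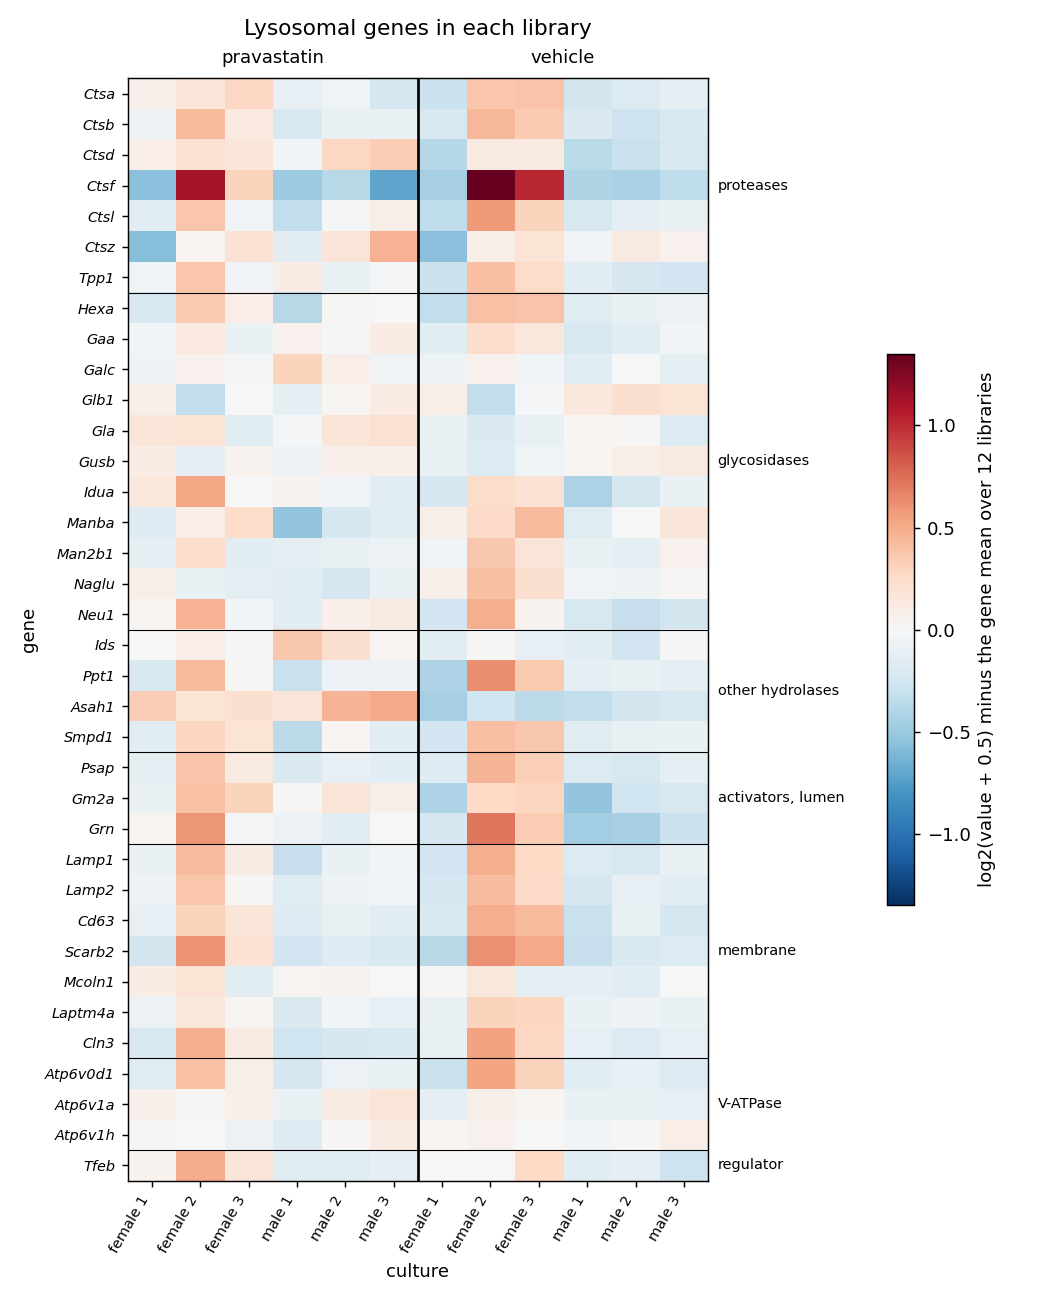
Each of the 36 genes (rows, grouped by role) in each of the 12 libraries (columns, pravastatin left and vehicle right), as log2(value + 0.5) minus the mean of the gene, with red above and blue below the mean. Female cultures 2 and 3 with vehicle and female culture 2 with pravastatin are red in most rows, and the row of Asah1 follows treatment instead.

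Ctsf differed most. It was at 67.1 and 37.7 in the pravastatin libraries of female cultures 2 and 3 and at 78.7 and 62.3 in their vehicle libraries, against 18.4 to 24.0 in the other 8 libraries, a log2 difference of 1.42. Scarb2, the membrane receptor that carries glucocerebrosidase to lysosomes, was at 490.4 and 370 with pravastatin and 493.5 and 459.7 with vehicle in those cultures, against 248 to 285 elsewhere (0.73). Neither set of ranges came close to overlapping. Ppt1 was at 71.1 to 109 against 52.4 to 67.1 (0.53), Cln3 at 18.2 to 24.8 against 14.0 to 15.7 (0.53), and Cd63 at 127 to 159.7 against 91.7 to 106 (0.52). Grn was at 55.2 to 93.2 against 40.5 to 57.9 (0.61), and its ranges overlapped through the pravastatin library of female culture 3.

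**Figure D4:**
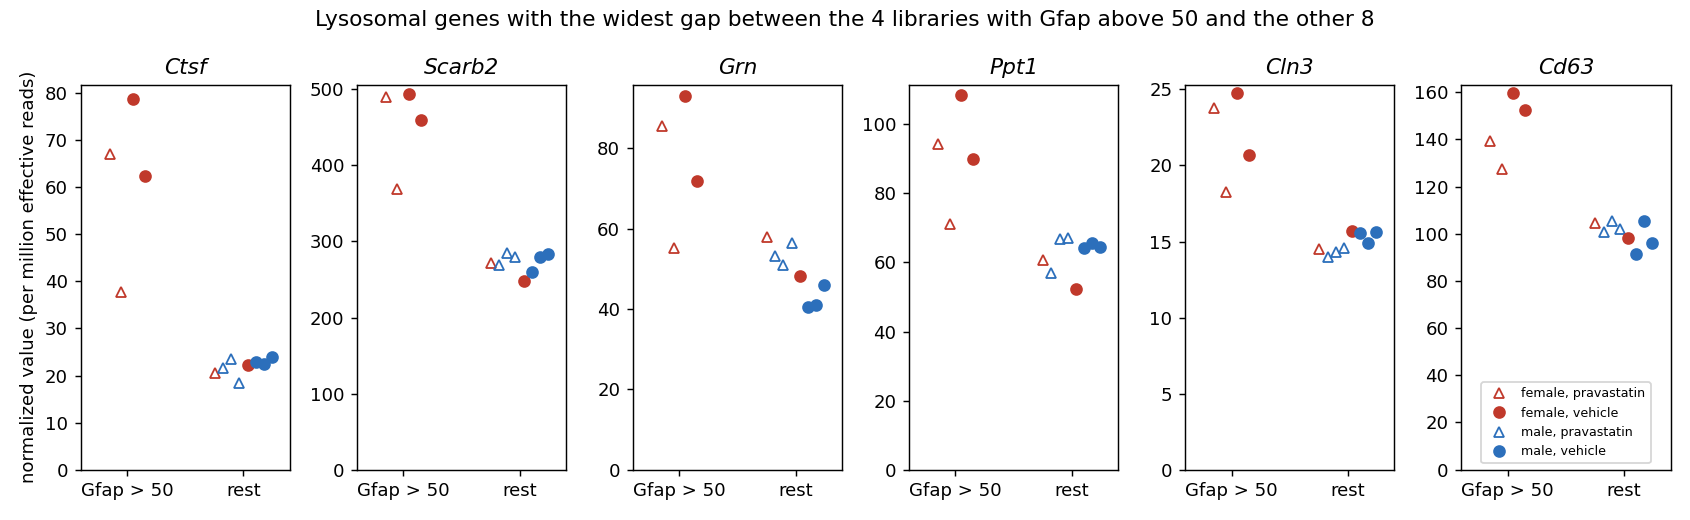
Normalized values (y axis, from 0) of Ctsf, Scarb2, Grn, Ppt1, Cln3 and Cd63 in the 4 libraries with Gfap above 50 and in the other 8, with open triangles for pravastatin, filled circles for vehicle, red for female and blue for male. All but Grn have 4 libraries above the other 8, and the lowest of the 4 is the pravastatin library of female culture 3 in each panel.

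By role, 6 of the 7 membrane proteins lay wholly above, with Mcoln1, a calcium channel of the lysosome, as the exception (log2 difference 0.03). So did 3 of 7 proteases, Ctsa, Ctsb and Ctsf, 1 of 11 glycosidases, Hexa, 2 of the 4 other hydrolases, Ppt1 and Smpd1, Psap and Gm2a among the activators, and Atp6v0d1 among the V-ATPase subunits. The median log2 difference was 0.48 for the membrane proteins and 0.17 for the glycosidases. Glb1 was the lowest of all, at 48.3 to 60.6 against 56.1 to 70.7 (-0.26), and Asah1 had -0.08. Atp6v1a, Atp6v1h, Galc and Ids lay within 0.07 of 0. Of the 5 genes called with pravastatin, only Gm2a was among the 15 that lay wholly above.

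With pravastatin libraries alone, 17 of the 36 genes were higher in both libraries with high Gfap than in the other 4 and 0 were lower, beside 22.5% and 20% of all genes. With vehicle libraries alone, 27 were higher and 1 was lower, beside 30.7% and 29.8% of all genes. In the 4 libraries against the other 8, 9 of 28 further hydrolases and 7 of 22 further membrane proteins lay wholly above, and 0 and 1 below. Of the remaining further lists, 3 of 15 V-ATPase genes, 4 of 17 regulators and 2 of 16 delivery genes lay above, and 0, 0 and 1 below. Over all genes 14.6% lay above and 10.9% below. Other marker lists also differed between the same libraries, to unlike extents. Of 9 astrocyte markers tested 8 lay wholly above, and the 10 markers in the table summed to 1999 to 3509 against 970 to 1567. Gfap is among the 8 and in the sums, and it lay above because the libraries were chosen by it. The 4 oligodendrocyte markers tested all lay above, and the 6 markers in the table summed to 313 to 785 against 92.9 to 151. For 9 of 10 proliferation genes all 4 libraries lay below, with sums of 1209 to 2519 against 3021 to 3607. Of 12 neural stem and radial glia markers 5 lay wholly above and 1, Nes, below. Of 7 neuron markers tested 2, Tubb3 and Dcx, lay above and 0 below. The part of cell composition and of proliferation in the lysosomal values was not tested.

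Culture by culture, the direction of the set with pravastatin varied. Most genes were lower in female cultures 2 and 3. In male culture 1, where Gfap was low, slightly more were lower than higher. In female cultures 1, 2 and 3, 7, 26 and 27 of the 36 genes were lower with pravastatin, beside 50.4%, 50.5% and 50.6% of all genes. In male cultures 1, 2 and 3, 20, 7 and 13 were lower, beside 49.6%, 51% and 52.1% of all genes. The 27 genes of female culture 3 are 75.0% of the set. In that culture Gfap was at 69.3 with pravastatin and 179 with vehicle, while Ccnd1, cyclin D1, was at 974 and 474. Across the 36 genes the change in female culture 3 had r = -0.725 with the difference between the vehicle library of female culture 2 and the vehicle libraries of female culture 1 and the males, and r = -0.524 across all 15093 genes. These values describe genes that share the same libraries and have no p. Treatment and the state of the cells cannot be told apart in the 2 libraries of female culture 3, and the cause of the changes there was not tested. Without female culture 3, 8 of the 36 genes were called higher, with Gla, Grn, Neu1 and Tpp1 added, where 12.3% of all genes were. Without both female cultures 2 and 3 there were 9, with Atp6v1a, Gaa, Grn, Neu1 and Tpp1 added, where 13% of all genes were. Manba was the 1 gene called lower in either case, and the share of all genes called lower in these fits is not given.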

How the data were processed

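Libraries were made with a stranded total RNA kit. After merging of technical replicates, the authors used TopHat2 2.1.1 for alignment to GRCm38, Cufflinks for assembly, HTSeq at default settings for counting and edgeR for testing. The deposited signal values are reads per gene divided by an effective size of the library, and all were whole reads within 0.001 read. The authors' fold changes, p-values and FDR, also deposited, were not used.

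The 36 genes, the lists and the tests were chosen with earlier results of these data known. A gene entered a test when its value exceeded 1 in 6 or more libraries (3 for tests of 6 libraries), and tests were run with limma 3.58.1 (R 4.3.3, lmFit and eBayes with trend) on log2(value + 0.5), two-sided, with culture as a term where treatments were compared, and p was adjusted by Benjamini-Hochberg over all genes. Residuals of same-numbered libraries correlated at 0.871, 0.871 and 0.428 in females and 0.182, 0.179 and 0.303 in males, so the replicate block was kept, and sample codes share their first letter and digit. The pairing of female culture 3 is weaker, since its vehicle library correlated at 0.425 with female pravastatin 2. Cultures came from individual embryos according to the study's methods. Joint or separate preparation of the treatments is not given in the sources used here, and the vehicle libraries also belong to another deposited series.

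All 36 genes are named. Given in full were the 8 with the smallest p, the 6 with the largest difference by Gfap and Tfeb, and of each further list the 3 genes with the smallest p. The values of 1 gene of a further list are not reported here. Alternatives were a fit with sex in place of culture, edgeR 4.0.16 and DESeq2 1.42.0 on recovered reads, added values of 1 and 0.1, other filters, rescaled values and leaving out cultures. The model was tested on simulated data. Coordinates are from GENCODE vM21 and promoters from RefSeq.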

Additional observations from a re-analysis of the deposited data

Results flagged for a closer look

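In 3 of the 36 genes, 1 culture lay far from the other 5 in its pravastatin minus vehicle difference by Dixon's criterion (0.625 for 6 values), and chance marks about 1 in 20 groups. Ctsz, a carboxypeptidase, differed by 0.411 on the log2 scale in male culture 3, the highest of 6. Galc differed by 0.449 in male culture 1, also the highest. Scarb2 differed by -0.315 in female culture 3, the lowest of 6.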

How the results depend on the processing

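Over all cultures 4 of the 36 genes were higher and 1 lower. With sex in place of the replicate block, the paired calls became 1 higher and 0 lower, in males 5 higher and 0 lower, and in females 0 higher. The lower count was 2 with edgeR, 2 with DESeq2 and 5 after scaling to library totals, and in males 0 with DESeq2 and 2 after that scaling, where 6 higher in males became 7 with edgeR and 5 with DESeq2 or that scaling. Leaving out 1 culture at a time gave 3 to 8 higher and 1 to 2 lower over all cultures, 3 to 11 higher and 0 to 1 lower in males, 0 to 3 lower in females and 0 to 1 lower in the interaction. For most of these alternatives the share of all genes called is not given, so the changes in count were not shown to be particular to the set. Without female cultures 2 and 3, 9 were higher. Females against males with vehicle ranged from 0 to 25 higher and 0 to 1 lower. By Gfap 15 lay above and 0 below, with 17 and 0 among pravastatin libraries alone and 27 and 1 among vehicle libraries alone, where 30.7% of all genes lay above and 29.8% below. The cause was not tested.

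Small estimates changed sign. Scarb2 ran from -0.0522 to 0.0364 (log2) when 1 culture was left out, the highest without female culture 3, and was 0.0478 without female cultures 2 and 3. Ppt1 was 0.0302 without these 2 cultures. Cd63 ran from -0.0561 to 0.0225 when 1 culture was left out, being above 0 without female culture 2 or 3, and was 0.0778 without both. Of 16 alternatives, Asah1 kept its call in 16, Ctsd, Gm2a and Manba in 15 and Ids in 10. No rescaling moved the median of all genes by over 0.1 (log2). With 6 cultures and 13353619 or more reads assigned to the genes of the deposited table per library, the number of cultures limits the small changes reported here.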
